A study of Mus musculus with 8 samples.

Results

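The let-7 family of microRNAs (miRNAs), with miR-98, was measured in testis small RNA of male mice on 2 diets. Its members were chosen by name: the entries of the miRNA class named let-7 with a 5p or 3p arm, and both arms of miR-98. These were 21 arms, 9 of them 5p and 12 of them 3p, of 730 entries in the miRNA class and 20558 small RNAs in all. Small RNA from adult testes was sequenced on a SOLiD instrument, and the values are numbers of reads counted per small RNA. The strain was C57Bl/6 in all 8 mice. The 4 control mice, M1N, M2N, TN1 and TN2, were kept on standard chow (standard diet, SD). The other 4 mice, M1W, M2W, M3W and M5W, were fed a Western-like diet rich in sugar and fat (WD). The labels give all 8 mice, controls included, a high-lipid diet from 4 weeks of age and mating at 4 months. The control diet was therefore taken from the study's methods. The study's methods place the division into diet groups at an earlier age than the labels, and the difference was not resolved here. The age at which testes were taken and the meaning of the letters in the mouse names were not given in the sources used here. Nothing beyond the names in the labels tells the mice of a group apart, so the p-values measure the spread between these mice.

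let-7 miRNAs are among the most conserved animal miRNAs. They are known as brakes on growth and pluripotency programmes, since they lower the output of targets such as Lin28a, Hmga2 and the Ras genes, and in the male germ line they are known for rising as spermatogonia differentiate. A hairpin precursor yields a 5p arm and a 3p arm, and in this family the 5p arm is the strand usually kept in Argonaute as the guide, while most 3p arms are degraded. Family members with the same seed, bases 2 to 8 of the mature strand, are read as largely sharing targets.

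The total count per mouse was 3248708 in M1N, 3253798 in M2N, 3101032 in TN1 and 2064562 in TN2. It was 2931793 in M1W, 2290920 in M2W, 2159625 in M3W and 3092399 in M5W. Levels are given as CPM, counts scaled to the same library size with edgeR's TMM factors. At these depths 3 counts, the limit that a count of 0 allows, correspond to between 0.933 and 1.39 CPM, which covers counting error only. M1N, and less so M2N, stood apart from the other mice before diet was considered. The chi-square per degree of freedom between the counts of M1N and another mouse lay between 8.12 and 24.4. Between M2N and mice other than M1N it lay between 6.18, for M2W, and 13.8, and among the remaining 6 mice between 2.56 and 6.12. M2N was thus nearer to M2W than to M1N, at 8.12, so this measure does not make a pair of M1N and M2N. It also grows with depth, and M1N and M2N had the highest total counts. Every pair differed by more than sampling noise, so no library was counted as a repeat of another. The control mice were paired by the letters of their names, M1N with M2N and TN1 with TN2. Differences between the diets are given against each pair as well, for the main arms and for the arm ratios. The mice of a pair and any handling they shared cannot be told apart.

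Markers of cells in the testis were checked first. The piRNA class, the small RNAs of male germ cells, took 87.4% ± 0.996 of all counts on SD and 87.0% ± 1.77 on WD (mean ± SD, n = 4 each). The 3 spermatogenic miRNAs miR-34b-5p, miR-34c-5p and miR-449a-5p together had 14223 ± 1693 CPM (SD, n = 4) in SD and 13930 ± 2106 CPM (SD, n = 4) in WD mice, and miR-34c-5p was the most abundant of them. miR-449a-5p did not follow the sum, with 2299 CPM in M1N and 1640 in M2N against 835 to 1125 CPM in the other 6 mice, and a log2 fold change of -0.62 (SE 0.24, edgeR adjusted p = 0.318) that passed the study's own thresholds for miRNAs, a fold change of at least 1.5 with an unadjusted p up to 0.1. The 2 arms of miR-202, known from gonadal support cells, summed to 3979 ± 256 CPM (SD, n = 4) in SD and 5007 ± 1349 CPM (SD, n = 4) in WD mice, with 7021 CPM in M2W and 4187 to 4487 CPM in the other WD mice. miR-202-5p made up most of it, with a log2 fold change of 0.35 (edgeR adjusted p = 0.391). miR-202-3p went the other way, with -0.34 (edgeR adjusted p = 0.507), so the sum does not speak for both arms. The 7 miRNAs of stroma and vessels, led by miR-145-5p, summed to 7014 CPM in M1N, 7104 in M2N, 5431 in TN1, 4935 in TN2, 5023 in M1W, 9328 in M2W, 6556 in M3W and 5079 in M5W. M2W, M2N and M1N were thus the highest. Of 7 blood and immune miRNAs 6 were found, led by miR-223-3p, with 574 CPM in M1N, 440 in M2N, 389 in TN1, 335 in TN2, 300 in M1W, 575 in M2W, 379 in M3W and 277 in M5W. Within that list miR-142-3p was higher in every WD mouse, at 17.1 to 21.5 CPM, than in any SD mouse, at 6.51 to 16.7 CPM (log2 fold change 0.60, SE 0.26, edgeR adjusted p = 0.326). miR-150-5p was lower in WD mice (-0.64, SE 0.35, edgeR adjusted p = 0.391), with overlap. These 2 and miR-449a-5p were the markers past the study's thresholds, of 20 tested, and 15.1% of the 418 miRNA entries passed them. Only the cut-offs are the study's, here and below. The p-values are edgeR's, and the study's own list of miRNAs holds none of these markers. The part of these markers in the let-7 values was not tested. The 2 muscle miRNAs, led by miR-1a-3p, summed to 42.0 ± 4.39 CPM (SD, n = 4) in SD and 43.8 ± 11.5 CPM (SD, n = 4) in WD mice. No marker found was at 0 in any mouse, and edgeR gave none of the 20 tested an adjusted p under 0.05 between diets. In tissue of this kind, fewer cells of a type and less RNA per cell cannot be told apart.

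The 5p arms of the family were abundant and the 3p arms scarce. All arms are 21 or 22 nucleotides long, so their levels were compared on the CPM scale without a length term. Whether the libraries captured each sequence equally was not tested, so an order of arms is an order of counts. let-7g-5p stood 17th among the 730 miRNA entries by mean level, with 1586 ± 500 CPM (SD, n = 8). It was followed by let-7a-5p at 1090 ± 221 CPM, let-7c-5p at 897 ± 191 CPM and let-7f-5p at 786 ± 296 CPM (SD, n = 8 each). let-7d-5p at 409 and let-7b-5p at 368 CPM formed a middle step. let-7e-5p at 87.6, let-7i-5p at 53.2 and miR-98-5p at 25.5 CPM were the lowest 5p arms. let-7g-5p exceeded let-7a-5p in 8 of 8 mice, and let-7a-5p exceeded let-7c-5p in 8 of 8. let-7c-5p and let-7f-5p did not differ beyond their spread (mean log2 ratio 0.25, SD 0.44, n = 8), nor did let-7d-5p and let-7b-5p (0.15, SD 0.29, n = 8). The drop from let-7b-5p to let-7e-5p was the widest between neighbours, with a mean log2 ratio of 2.11 (SD 0.42, n = 8).

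Among the 3p arms let-7d-3p was the most abundant, with a mean of 60.9 CPM over the 8 mice. It lay above let-7i-5p in 4 of 8 mice, so a 3p arm and a 5p arm of this family had similar CPM. By the same mean let-7i-3p came next with 15.7 CPM, then let-7a-1-3p with 12.6, let-7c-2-3p with 12.5 and let-7b-3p with 12.2 CPM. These did not differ beyond their spread from 1 to the next. The mean of let-7i-3p was 11.2 CPM in SD and 20.2 CPM in WD mice, and in SD mice let-7b-3p, at 11.7 CPM, lay above it. let-7g-3p had 6.40 CPM although its 5p partner was the top arm of the family. let-7f-1-3p had 3.49 CPM, and 5 arms did not pass the filter on low counts and were not tested. These were let-7e-3p with 77 counts over the 8 mice, let-7f-2-3p with 51, miR-98-3p with 41, let-7c-1-3p with 32 and let-7a-2-3p with 28. miR-98-3p had a count of 0 in M1W, which allows a level of up to 0.986 CPM.

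**Figure D1:**
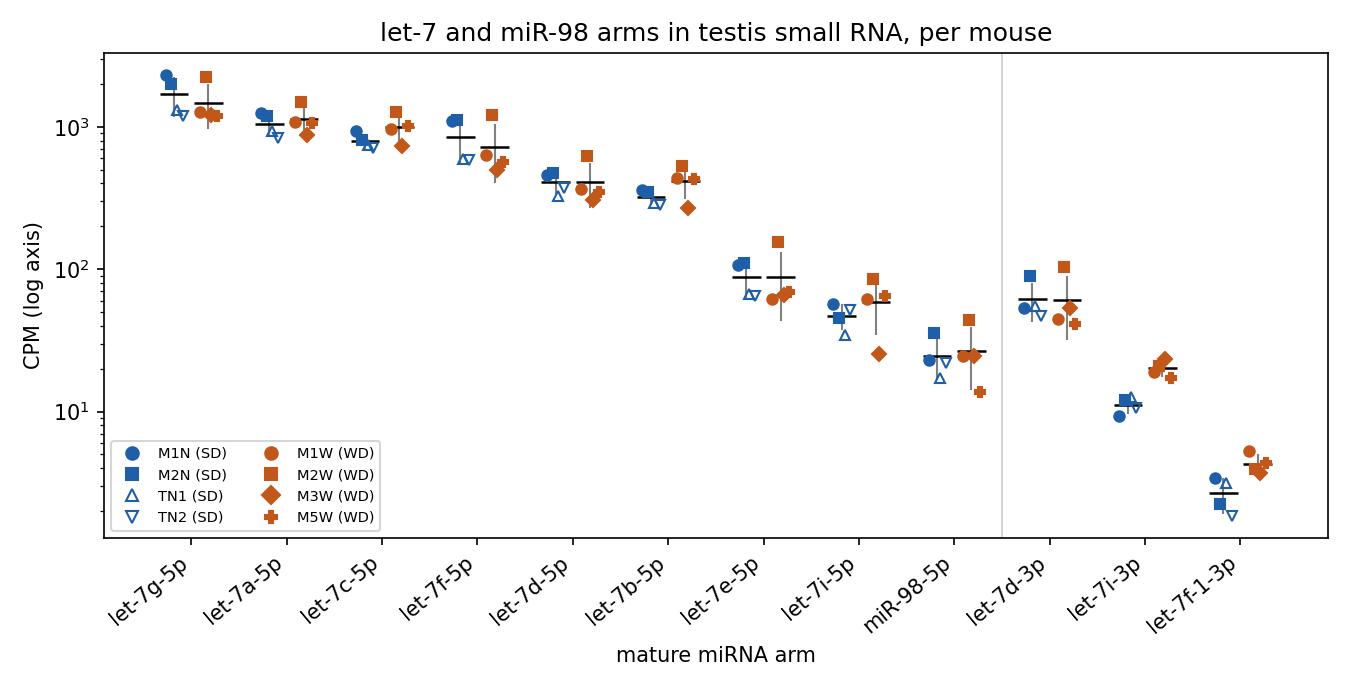
CPM of the 9 5p arms and of 3 3p arms in each mouse, on a log axis; symbols are mice (blue SD, orange WD, open symbols TN1 and TN2), black lines group means and grey lines the SD over 4 mice. The orange symbols lie above all blue ones for let-7i-3p (17.1 to 23.5 against 9.25 to 12.6 CPM) and for let-7f-1-3p, and overlap with them for the other arms drawn.

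The sequences show why counts within the family can be shared. All 21 arms were matched by name to RefSeq mature miRNAs (GRCm38.p6). The 9 5p arms carry 1 seed, GAGGUAG, in capitals below. The 6 sequences given, 5′ to 3′, are let-7a-5p as the reference, the 4 arms whose shares differed most between the diets, and the partner of let-7i-3p.
mmu-let-7a-5p: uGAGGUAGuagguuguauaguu
mmu-let-7c-5p: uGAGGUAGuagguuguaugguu
mmu-let-7b-5p: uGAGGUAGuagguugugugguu
mmu-let-7f-5p: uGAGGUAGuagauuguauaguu
mmu-let-7g-5p: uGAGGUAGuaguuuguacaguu
mmu-let-7i-5p: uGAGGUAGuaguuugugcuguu

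With positions counted from 1 at the 5′ end and the base of let-7a-5p given first, let-7c-5p differs by A19G and let-7b-5p by A17G and A19G. let-7f-5p differs by G12A, let-7g-5p by G12U and U18C, and let-7i-5p by G12U, A17G, U18C and A19U. Of the others, let-7e-5p differs by U9G, let-7d-5p by U1A and U16C, and miR-98-5p by G11A and A19U. Of the 36 pairs of 5p arms, 4 differ at 1 base and 14 at 2 bases or fewer, and 2 mismatches were allowed when the reads were aligned. How a read matching several arms was counted is not given in the sources used here. The level of a single 5p arm is therefore uncertain to that extent. The sum over the 5p arms is unaffected if such reads were divided among arms, but not if they were entered under several.

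The 3p arms differ more from each other. The seed UAUACAA was shared by 5 of the 12, let-7a-1-3p, let-7c-2-3p, let-7b-3p, let-7f-1-3p and miR-98-3p, while each of the other 7 had a seed of its own. The 4 sequences below are the most abundant 3p arm, the arms that stood highest in WD against SD mice, and 1 of a pair that is identical, again with the seed in capitals and credited to RefSeq (GRCm38.p6).
mmu-let-7d-3p: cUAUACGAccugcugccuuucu
mmu-let-7i-3p: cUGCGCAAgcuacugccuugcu
mmu-let-7f-1-3p: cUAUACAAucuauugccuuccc
mmu-let-7a-1-3p: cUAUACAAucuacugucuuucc

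let-7a-1-3p and let-7c-2-3p have the same mature sequence although they come from precursors on different chromosomes. Their counts were equal in 5 of 8 mice and differed by at most 1 in the rest, so they are not separate measurements. Whether the reads were divided between both names or entered under each is not given in the sources used here. let-7i-3p has no other 3p arm within 2 mismatches, and its counts cannot be drawn from another member in that way.

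The precursors were placed on the mouse assembly NCBIM37, the build of the deposited alignment, by exact match of the RefSeq hairpins. Mirlet7i lies alone between genes at chr10:122422696-122422780 on the minus strand. Mirlet7a-1, Mirlet7f-1 and Mirlet7d form a cluster on the minus strand from chr13:48631381-48631483 (Mirlet7d) to chr13:48633548-48633641 (Mirlet7a-1), also outside annotated host genes. Mirlet7c-2 at chr15:85537033-85537127 and Mirlet7b at chr15:85537749-85537833 are neighbours on the plus strand. Mirlet7g lies in an intron of Wdr82 on the same strand at chr9:106081171-106081258. Mirlet7f-2 at chr X, 148346889 to 148346971, and Mir98 next to it lie in an intron of Huwe1. Mirlet7e lies beside Mir125a on chromosome 17, Mirlet7c-1 beside Mir99a on chromosome 16, and Mirlet7a-2 between Mir100 and Mir125b-1 on chromosome 9. let-7a-5p, let-7c-5p and let-7f-5p thus each have 2 source precursors that the counts do not separate.

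The summed level of the 5p arms overlapped between the diets. The sum was 6579 CPM in M1N, 6110 in M2N, 4318 in TN1 and 4099 in TN2, a mean of 5277 ± 1251 CPM (SD, n = 4). It was 4906 CPM in M1W, 7647 in M2W, 4001 in M3W and 4760 in M5W, a mean of 5328 ± 1596 CPM (SD, n = 4). M2W was the highest of all mice and M3W the lowest, both on WD, and the groups overlapped. The log2 ratio of the group means, WD over SD, was 0.01, a value that lies between opposite ones against each pair of control mice. With M1N and M2N as the only controls it was -0.25, with TN1 and TN2 as the only controls 0.34, and without M2W -0.21, settings chosen after seeing the data. The sum was not tested. As a share of the counts of the miRNA class the 5p arms took 5.05% ± 0.543 (SD, n = 4) in SD and 5.06% ± 0.892 (SD, n = 4) in WD mice. The summed stromal and blood miRNAs given above were also highest in M2W, M1N and M2N, and their part in the sum was not tested. Single markers differed from those sums: miR-451 was lowest in M2N at 37.3 and M1N at 63.1 CPM, miR-144-3p was lowest in M2N, and miR-142-3p and miR-143-3p were lowest in M1N.

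Within that sum the balance of members differed among mice. let-7g-5p took 31.8% ± 2.66 (SD, n = 4) of the 5p counts in SD and 27.5% ± 2.60 (SD, n = 4) in WD mice, and let-7f-5p 15.7% ± 2.11 and 13.2% ± 1.72 (SD, n = 4 each). let-7c-5p took 15.4% ± 2.09 in SD and 19.0% ± 2.03 in WD mice, and let-7b-5p 6.18% ± 0.719 and 7.91% ± 1.24 (SD, n = 4 each). The shares of let-7a-5p, 20.05% ± 1.13 and 21.5% ± 1.26, and of let-7d-5p, 7.83% ± 0.889 and 7.66% ± 0.348 (SD, n = 4 each), moved less. For each of the 9 arms the shares of the groups overlapped. Put as 1 ratio, chosen after its values were seen and not tested, let-7b-5p plus let-7c-5p counts over let-7g-5p plus let-7f-5p counts came to 0.377 in M1N, 0.372 in M2N, 0.538 in TN1 and 0.560 in TN2. The same ratio was 0.743 in M1W, 0.523 in M2W, 0.589 in M3W and 0.827 in M5W. The lowest values belonged to M1N and M2N, and M2W fell below TN1 and TN2, so the diets overlapped.

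let-7g-5p, the most abundant arm, had 2309 CPM in M1N, 1985 in M2N, 1321 in TN1 and 1183 in TN2. In WD mice it had 1261 CPM in M1W, 2238 in M2W, 1206 in M3W and 1184 in M5W. M1N, M2N and M2W were high and the other 5 mice were close together, a division that did not follow the diet. The log2 fold change, WD against SD, was -0.21 (SE 0.25, adjusted p = 0.690, edgeR's quasi-likelihood test, Benjamini-Hochberg over all small RNAs tested). Against M1N and M2N alone it was -0.54 (SE 0.23), and against TN1 and TN2 alone it turned to 0.23 (SE 0.21). Without M1N it was -0.0235 and without M2W -0.48. let-7f-5p, from the clusters on chromosomes 13 and X, followed the same mice, with 1101, 1112, 593 and 583 CPM in M1N, M2N, TN1 and TN2. In WD mice let-7f-5p had 635 CPM in M1W, 1203 in M2W, 496 in M3W and 566 in M5W. Its log2 fold change was -0.23 (SE 0.29, edgeR adjusted p = 0.706). It was -0.61 (SE 0.25, edgeR adjusted p = 0.0900) against M1N and M2N alone, and it also turned, to 0.30 (SE 0.25), against TN1 and TN2 alone. Without M2N it was -0.0635 and without M2W -0.58.

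let-7b-5p had 358 CPM in M1N, 346 in M2N, 291 in TN1 and 280 in TN2, against 438 in M1W, 528 in M2W, 271 in M3W and 431 in M5W. M1W, M2W and M5W lay above every SD mouse and M3W below every SD mouse, so the groups overlapped. The log2 fold change was 0.39 (SE 0.19, edgeR adjusted p = 0.362). let-7c-5p, which differs from it by 1 base, had 927 CPM in M1N, 807 in M2N, 740 in TN1 and 709 in TN2. It had 971 CPM in M1W, 1270 in M2W, 733 in M3W and 1016 in M5W, again with M3W low among the WD mice. The log2 fold change was 0.33 (SE 0.18, edgeR adjusted p = 0.398). Neither arm passed the test, and both estimates were above 0 against either pair of control mice, at 0.24 and 0.54 for let-7b-5p and 0.20 and 0.46 for let-7c-5p. Without M2W they were 0.25 and 0.19, and without M3W 0.54 and 0.45.

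Of the remaining 5p arms, 4 had estimates near 0. The log2 fold change was 0.11 (SE 0.20) for let-7a-5p, 0.01 (SE 0.22) for let-7d-5p, -0.003 (SE 0.28) for let-7e-5p and 0.11 (SE 0.31) for miR-98-5p. For these 4 arms the sign depended on the setting, and none can be given a direction. let-7i-5p had 57.2 CPM in M1N, 45.3 in M2N, 34.7 in TN1 and 51.9 in TN2, against 61.5 in M1W, 85.1 in M2W, 25.3 in M3W and 65.0 in M5W. M3W had the lowest level of all 8 mice and the other WD mice the 3 highest. Its log2 fold change was 0.33 (SE 0.28, edgeR adjusted p = 0.552), with 0.22 against M1N and M2N and 0.48 against TN1 and TN2. It was 0.12 without M2W and 0.58 without M3W.

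Across the 9 5p arms 6 estimates were above 0 and 3 below, with a median log2 fold change of 0.11. Over the 418 miRNA entries tested the median was 0.03, and over all 16955 small RNAs tested it was -0.01. Without M2W the median of the 5p arms turned to -0.23 and that of the miRNA entries to -0.10. The mean of M1N and M2N lay above that of TN1 and TN2 for 9 of 9 5p arms, by a factor of 1.18 for let-7i-5p to 1.88 for let-7f-5p. Against M1N and M2N alone 3 of the 9 estimates were above 0, and against TN1 and TN2 alone 9 of 9 were. The miRNA class moved the same way, with 194 of 453 entries above 0 (median -0.14) against the first pair and 316 of 442 (median 0.19) against the second. Both comparisons use the same 4 WD mice.

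**Figure D2:**
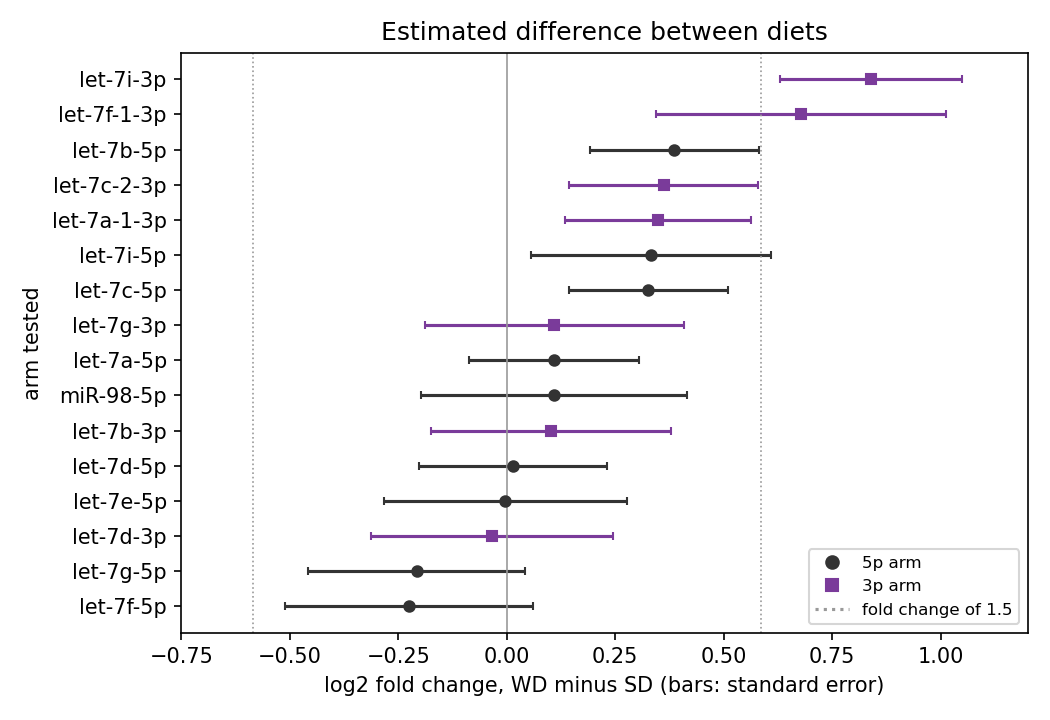
Log2 fold change, WD minus SD, of the 16 arms tested, from edgeR's quasi-likelihood fit, with bars for the standard error; circles are 5p arms, squares 3p arms, and dotted lines mark a fold change of 1.5. let-7i-3p (0.84) and let-7f-1-3p (0.68) lie beyond the dotted line, and let-7g-5p (-0.21) and let-7f-5p (-0.23) are the lowest.

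let-7i-3p was the arm with the clearest separation between the diets. It had 9.25 CPM in M1N, 12.1 in M2N, 12.6 in TN1 and 10.7 in TN2, from 27, 38, 40 and 23 counts. In WD mice it had 19.1 CPM in M1W, 21.0 in M2W, 23.5 in M3W and 17.1 in M5W, from 58, 48, 51 and 55 counts. Every WD mouse lay above every SD mouse, and M1N and M2N did not stand apart from TN1 and TN2 here. The log2 fold change was 0.84 (SE 0.21), or 1.79-fold, with an unadjusted p of 0.00112 and an adjusted p of 0.318 in edgeR's test over all small RNAs. It did not pass the adjusted threshold. Against M1N and M2N alone the log2 fold change was 0.90 (SE 0.27, edgeR adjusted p = 0.0223), and against TN1 and TN2 alone it was 0.77 (SE 0.25, edgeR adjusted p = 1.00). The study had listed this arm from these same mice, so the difference is not independent evidence of its direction. By quantitative RT-PCR the study gave it as higher in testis, without a mark of significance, and as unchanged in sperm.

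let-7f-1-3p, from the chromosome 13 cluster, was scarce, with 10, 7, 10 and 4 counts in M1N, M2N, TN1 and TN2 and 16, 9, 8 and 14 in M1W, M2W, M3W and M5W. On the CPM scale this gave 3.43, 2.23, 3.15 and 1.85 in the same SD mice and 5.26, 3.95, 3.69 and 4.35 in the WD mice. The groups did not overlap, though 3.43 and 3.69 CPM differ by less than the worth of 1 count. The log2 fold change was 0.68 (SE 0.33, edgeR adjusted p = 0.353), with 0.63 against M1N and M2N and 0.74 against TN1 and TN2. let-7a-1-3p, from the same cluster, had 10.6, 12.8, 11.03 and 9.73 CPM in M1N, M2N, TN1 and TN2, and 12.2, 16.2, 12.9 and 15.2 CPM in M1W, M2W, M3W and M5W, so that only M1W overlapped with the SD mice, through M2N. Its log2 fold change was 0.35 (SE 0.21, edgeR adjusted p = 0.432), with 0.27 and 0.43 against those pairs, and it cannot be told apart from let-7c-2-3p. let-7d-3p, the third arm of the cluster, had 53.1, 89.6, 55.4 and 47.2 CPM in the SD mice in that order and 44.4, 103, 53.4 and 41.1 CPM in the WD mice. M2N and M2W were high and the diets overlapped, with a log2 fold change of -0.03 (SE 0.28, edgeR adjusted p = 0.958) that was -0.25 and 0.21 against the pairs. let-7b-3p had an estimate of 0.10 (SE 0.28), which was -0.18 against M1N and M2N and 0.45 against TN1 and TN2. let-7g-3p had 0.11 (SE 0.30), which turned the other way, at 0.41 and -0.16.

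edgeR called 0 of the 16 arms tested at an adjusted p under 0.05, and 0 of all 16955 small RNAs (0%), of which 2474 had an unadjusted p of 0.05 or less. DESeq2 and limma-voom also called 0 of the 16, and 1 arm, let-7i-3p, had an unadjusted p of 0.05 or less. Of the 16 arms, 2 passed the study's thresholds (fold change 1.5, unadjusted p 0.1) in edgeR's test, let-7i-3p and let-7f-1-3p. The study's own list holds let-7i-3p but not let-7f-1-3p. Among the 418 miRNA entries 15.1% passed these thresholds, and 7.89% passed them with a higher level in WD mice, as both arms did. All WD mice lay above all SD mice for the same 2 of 16 arms and for 5.50% of the miRNA entries, and below them for 0 of 16 arms and 2.87% of the entries. The counts for the family are small, and nothing particular to the family is read from them. With M1N and M2N as the only controls, edgeR called 1 of 17 arms, let-7i-3p, at an adjusted p under 0.05, where it called 20.8% of 17495 small RNAs. The arms past the study's thresholds there were 2 as well, but not the same ones: let-7i-3p, higher in WD mice, and let-7f-5p, lower in WD mice. Against that pair 154 of 453 miRNA entries passed them, a larger share than of the arms. With TN1 and TN2 instead edgeR called 0 of 16 arms and 0.134% of 17168 small RNAs, and 3 arms had an unadjusted p of 0.05 or less, as did 80 of 442 miRNA entries and 650 of all small RNAs. The number of arms past the study's thresholds fell to 1 with DESeq2, with TMM factors from the miRNA class and against TN1 and TN2 alone, and also without M2N, without TN2 or without M1W. In the first 3 of these settings 58 of 418, 53 of 413 and 66 of 442 miRNA entries passed. Without M2N 57 of 425 passed, without TN2 92 of 440 and without M1W 70 of 445, so the arms did not exceed the miRNA class.

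The 2 arms of a precursor are counted in the same library, so scaling factors cancel in their ratio, but at low counts the ratio depends on depth and on the 0.5 added to each count. It was computed as the log2 of (3p count + 0.5) over (5p count + 0.5) for the 6 precursors whose arms are both listed and come from 1 precursor. The precursors differed widely in these counts, and equal capture of the 2 arms was not tested. The 3p arm made up 23.9% of the counts of both arms for let-7i as the mean over 8 mice, 12.8% for let-7d, 7.01% for miR-98, 3.94% for let-7e, 3.27% for let-7b and 0.452% for let-7g. For the arms with 2 source precursors, the 3p arms together made up 1.27% for let-7a, 1.55% for let-7c and 0.822% for let-7f. The value for let-7a includes let-7a-1-3p and that for let-7c includes let-7c-2-3p, which are not separate measurements.

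**Figure D3:**
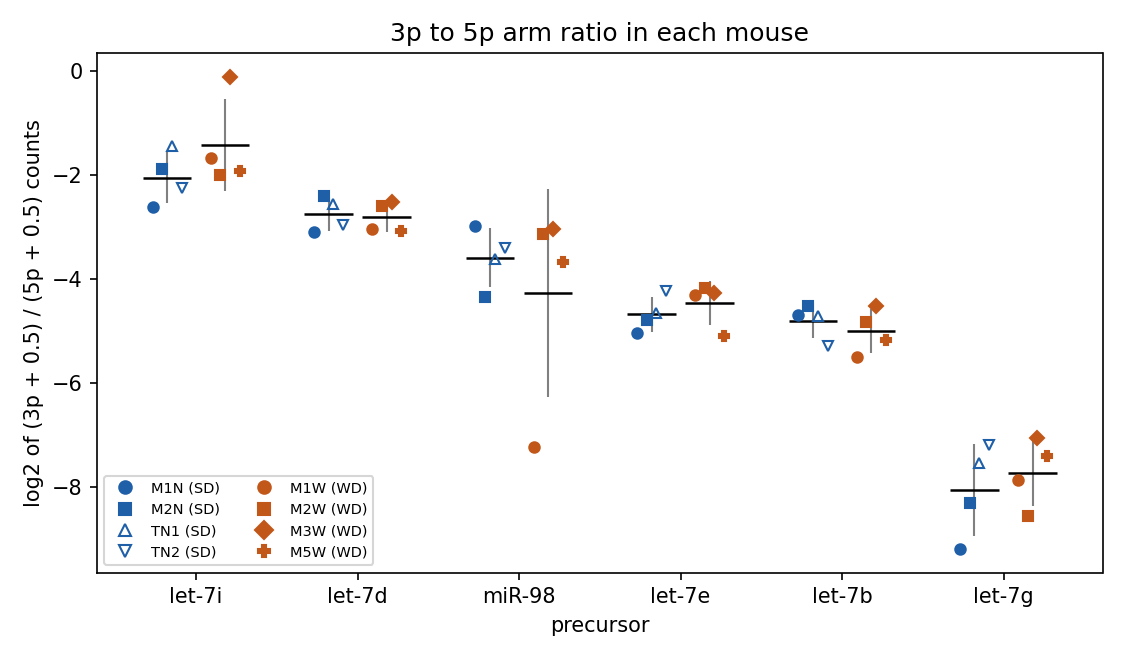
Log2 ratio of 3p to 5p counts, with 0.5 added to each, for 6 precursors in each mouse; symbols are mice, black lines group means and grey lines the SD over 4 mice. let-7i and let-7d have the highest ratios and let-7g the lowest, M3W is at -0.11 for let-7i, M1W, with 0 counts of the 3p arm, is at -7.24 for miR-98, and the diets overlap for all 6 precursors.

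For let-7i the log2 ratio was -2.61 in M1N, -1.89 in M2N, -1.45 in TN1 and -2.26 in TN2, and -1.68 in M1W, -2.004 in M2W, -0.11 in M3W and -1.92 in M5W. M3W stood far above the others: its 3p arm had 51 counts and its 5p arm 55, a 3p share of 48.1% (95% Wilson interval 38.8 to 57.5). In the other 7 mice the 3p share lay between 13.9% (9.74 to 19.5) in M1N and 26.7% (20.2 to 34.3) in TN1. These intervals cover counting error only. The mean ratio was -2.05 ± 0.497 (SD, n = 4) in SD and -1.43 ± 0.890 (SD, n = 4) in WD mice. The difference of 0.62 did not pass (exact permutation test, two-sided, p = 0.314, adjusted over 6 precursors p = 0.743), and without M3W it was 0.18. Against M1N and M2N it was 0.82 and against TN1 and TN2 0.43. The ratio thus did not separate the diets although the level of let-7i-3p did. Within WD mice let-7i-5p ranged from 25.3 to 85.1 CPM and let-7i-3p from 17.1 to 23.5 CPM.

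For let-7d the log2 ratio was -3.10 in M1N, -2.40 in M2N, -2.55 in TN1 and -2.97 in TN2, and -3.04 in M1W, -2.59 in M2W, -2.52 in M3W and -3.09 in M5W. Each diet held 2 mice near -3 and 2 nearer -2.5. The means were -2.76 ± 0.331 and -2.81 ± 0.295 (SD, n = 4 each), a difference of -0.05 (exact permutation test, two-sided, p = 0.686, adjusted p = 0.743), which was -0.06 against M1N and M2N and -0.05 against TN1 and TN2. For the other 4 precursors the difference, WD minus SD, was -0.21 for let-7b, 0.22 for let-7e, 0.34 for let-7g and -0.68 for miR-98. None passed, with exact permutation p between 0.400 and 0.743 and the same adjusted p of 0.743. The smallest p that 4 mice against 4 can give is 0.0286. The sign depended on the control mice for let-7g, at 1.03 against M1N and M2N and -0.36 against TN1 and TN2, and for let-7e, at 0.46 and -0.015. It did not for let-7b, at -0.40 and -0.009, or for miR-98, at -0.60 and -0.76. The difference for let-7b was -0.041 without M1W and -0.37 without TN2. For let-7e it was 0.098 without M1N and 0.43 without M5W. The value for miR-98 rests on M1W, where the 3p arm had 0 counts, and was 0.31 without that mouse and -0.11 with 5 added to each count in place of 0.5.

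let-7g showed the lowest 3p share and the widest gap between control pairs. Its log2 ratio was -9.19 in M1N and -8.32 in M2N, against -7.54 in TN1 and -7.19 in TN2. In WD mice the log2 ratio ran from -8.56 in M2W to -7.07 in M3W, with 13 and 19 counts of the 3p arm. M1N, M2W and M2N, the mice with the most let-7g-5p, had the lowest ratios. Both arms varied, let-7g-5p from 1183 to 2309 CPM and let-7g-3p from 3.77 CPM in M1N to 8.75 CPM in M3W, and they ran in opposite directions over the 8 mice (Pearson's r = -0.72, not tested).

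Hairpin entries of the family were near the limit of detection. pre-mmu-let-7a-1 had 44 counts over the 8 mice, pre-mmu-let-7b 16 and pre-mmu-let-7g 15. None passed the filter on low counts, and differences between diets were not tested.

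miRNAs encoded beside let-7 genes were looked at next. The listed entries of miR-99a, miR-99b, miR-100, miR-125a and miR-125b numbered 13, of which 8 were tested. edgeR called 0 of them, 3 estimates were above 0 and 5 below, and the median log2 fold change was -0.13. miR-99a-5p, from the hairpin next to Mirlet7c-1, had 1822 ± 407 CPM (SD, n = 4) in SD and 1965 ± 713 CPM (SD, n = 4) in WD mice. miR-125a-5p, from the hairpin next to Mirlet7e, had 682 ± 296 and 463 ± 226 CPM (SD, n = 4 each), with a log2 fold change of -0.56 (SE 0.32, edgeR adjusted p = 0.403). Its mean was 938 CPM over M1N and M2N and 426 CPM over TN1 and TN2, the same division as for let-7g-5p. In edgeR's test miR-125b-2-3p was the entry among the 8 past the study's thresholds, which 15.1% of the 418 miRNA entries passed. It had 4.11, 5.74, 5.99 and 4.63 CPM in M1N, M2N, TN1 and TN2, and 7.56, 11.8, 7.83 and 7.78 CPM in M1W, M2W, M3W and M5W. The groups did not overlap, and the log2 fold change was 0.75 (SE 0.27, edgeR adjusted p = 0.318).

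Outside the family, miR-202-3p was the other mature miRNA matched to RefSeq that shares bases 2 to 7, GAGGUA, with let-7a-5p. It had 201.5, 181, 98.9 and 102 CPM in M1N, M2N, TN1 and TN2, and 106, 165, 106 and 83.7 CPM in M1W, M2W, M3W and M5W. M1N, M2N and M2W were again the highest, and its log2 fold change was -0.34 (SE 0.25, edgeR adjusted p = 0.507). Of the 576 mature names listed, 430 were matched to a RefSeq sequence, so the search covers those.

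The miRNAs with the most similar profile over the 8 mice were listed by Pearson's r of log2 CPM, as a description with no test. All mice contribute to both profiles through the same libraries, and M1N and M2N stand apart in many miRNAs. For let-7i-3p the closest of 365 mature miRNAs were miR-32-5p (r = 0.92), miR-125b-2-3p (0.90) and miR-669a-3p (0.88). For let-7d-3p they were miR-23b-3p (0.96), miR-23a-3p (0.92) and miR-1843b-3p (0.91). For the summed 5p arms they were miR-351-5p (0.95), miR-185-5p (0.95) and miR-342-5p (0.95) among 357.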

How the data were processed

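Small RNA of 8 testes was sequenced on a SOLiD instrument. The authors trimmed reads at the adaptor, aligned them to mm9 with Bowtie (version not given in the sources used here) allowing 2 mismatches, annotated them with miRBase, Rfam and a non-coding RNA database, and deposited unnormalized counts for each small RNA and mouse. The labels' processing notes also name DESeq. The labels attach a high-lipid diet to all 8 mice, and the control diet was taken from the study's methods instead.

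Counts were fitted with edgeR 4.0.16 (R 4.3.3) over the whole table: TMM factors, filterByExpr (minimum count 10, minimum total 15), the two-sided quasi-likelihood test with diet as the only term, and Benjamini-Hochberg adjustment over 16955 small RNAs. Standard errors are approximate, being the log2 fold change over the square root of F. DESeq2 1.42.0 and limma-voom (limma 3.58.1) were alternatives. Arm ratios were tested by exact permutation over 70 assignments (scipy 1.17.1). On simulated counts edgeR called 66 of 100 2-fold changes and 92 of 93 4-fold changes, with 5 false calls. Apart from those changes all simulated mice had the same mean profile, so the departure of M1N and M2N was not covered.

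Named miRNAs were the members, hairpin entries, neighbours of let-7 genes, miRNAs sharing bases 2 to 7, the 3 most similar profiles and cell type markers. Members and lists were chosen with earlier results of these data known. Alternatives were other tools, scalings, filters, thresholds and pseudocounts, each pair of control mice, a block on the shared mouse number, and each mouse left out.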

Additional observations from a re-analysis of the deposited data

Results flagged for a closer look

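In 60 groups of 4 mice (the level of each arm, the arm ratios, the sums and the total count, in each diet), 1 mouse lay far from the other 3 in 7 groups, by a ratio of gap to range above Dixon's critical value for 4. Chance alone marks about 1 in 20 groups, or 3 of 60.

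M2W was high among WD mice in 3 of these. It had 2238 CPM of let-7g-5p where the other WD mice had 1184 to 1261, 154 CPM of let-7e-5p where they had 61.5 to 68.7, and 3.51 CPM of let-7f-2-3p where they had 2.30 to 2.49. The last rests on 8 counts. M2W also had the highest summed level of stromal and vessel miRNAs, 9328 CPM, and of miR-202, 7021 CPM. Their part in these values was not tested.

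The 3p to 5p log2 ratio of let-7i was -0.11 in M3W and -2.004 to -1.68 in the other WD mice. That of let-7e was -5.09 in M5W, from 6 counts of the 3p arm, and -4.30 to -4.18 in the others. That of miR-98 was -7.24 in M1W, from 0 counts of the 3p arm, and -3.67 to -3.04 in the others. The total count of TN2, 2064562, was low among SD mice, whose other totals were 3101032 to 3253798.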

How the results depend on the processing

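let-7i-3p kept its direction in all 20 alternatives that could change it (0.75 to 0.92), as did let-7c-5p, let-7b-5p, let-7i-5p, let-7a-1-3p and let-7c-2-3p, and let-7f-1-3p in the 18 that gave it a value. It had none with TMM within the miRNA class or under the filter of 10 counts per mouse. Their size moved more. With a mouse left out let-7i-5p ran from 0.12 to 0.58 and let-7c-5p from 0.19 to 0.45. let-7b-5p ran from 0.25 to 0.54 and let-7f-1-3p from 0.56 to 0.81. Outside that list, let-7g-5p ran from -0.48 to -0.0235 and let-7f-5p from -0.58 to -0.0635 with a mouse left out. The number of arms called was 1 with M1N and M2N alone as SD and 0 otherwise. The number past the study's thresholds was 2 in the report. It was 1 with DESeq2, TMM within the miRNA class, the filter of 10 counts per mouse, or TN1 and TN2 alone as SD. It was also 1 with M1 and M2 mice, with or without the replicate block, and at an unadjusted p of 0.05 or less. It was 4 with no fold change threshold, and 1 to 2 with a mouse left out. Of the miRNA entries 39 of 325 passed under that filter, 122 of 437 with the block and 123 of 437 without it. At an unadjusted p of 0.05 or less 47 of 418 entries passed, and with no fold change threshold 122 of 418. With a mouse left out it was 51 of 426 entries (without M1N) to 100 of 436 (without M2W).

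These log2 fold changes reversed, and the cause was not tested. With TN1 and TN2 alone let-7g-5p was 0.23, let-7f-5p 0.30, let-7e-5p 0.40, let-7d-3p 0.21 and let-7g-3p -0.16. With M1N and M2N alone let-7a-5p was -0.11, let-7d-5p -0.18, miR-98-5p -0.16 and let-7b-3p -0.18. With M1 and M2 mice let-7b-3p was -0.089 blocked and -0.064 unblocked, and let-7d-3p 0.036 unblocked. let-7d-5p was -0.025 with limma-voom and -0.016 with TMM within the miRNA class. With column totals let-7e-5p was 0.060 and let-7d-3p 0.017, and let-7e-5p was 0.017 with upper-quartile factors, 0.0049 unfiltered and 0.0098 where each mouse had 10 counts or more. With a mouse left out the range was -0.054 to 0.22 for let-7a-5p, -0.25 to 0.13 for let-7d-5p, -0.41 to 0.14 for let-7e-5p, -0.41 to 0.21 for let-7d-3p, -0.23 to 0.36 for miR-98-5p, -0.11 to 0.25 for let-7b-3p and -0.067 to 0.23 for let-7g-3p. Among arm ratios, none of them called, let-7g was -0.36 and let-7e -0.015 with TN1 and TN2 alone. With a mouse left out the lowest and highest were -0.040 and 0.63 for let-7g, -0.17 and 0.064 for let-7d, and -1.09 and 0.31 for miR-98. The ratios of let-7b, at -0.37 and -0.041, and let-7e, at 0.098 and 0.43, kept their sign there but not their size.

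M1 and M2 recur in both diets, but the difference M1N minus M2N did not follow M1W minus M2W (r = -0.06 over 16955 small RNAs, 2 pairs). The summed 5p arms against each control pair, and with a mouse left out, were added after seeing the data. Depth limits the 3p arms, 5 of which were not tested.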
